A study of Mus musculus with 19 samples.

Results

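The 34 genes described here encode the enzymes of the tricarboxylic acid (TCA) cycle, the proteins that bring pyruvate into it and control that entry, and the enzymes that add carbon to the cycle or withdraw it. They were a list of named genes out of 35598 genes with a transcript in the deposited tables, and all 34 passed the filter on low counts. RNA had been sequenced from 19 cultures of primary myoblasts from mouse hind-limb muscle, the precursor cells that fuse into multinucleate muscle fibres. The WT label covered 3 libraries of proliferating myoblasts (24 h in growth medium), 3 of differentiated myotubes (48 h) and 4 of fused myotubes (72 h). The Glud1-deficient label, called KO-labelled below, covered 3, 2 and 4 libraries of the same stages. Nothing in the labels gives the strain, the age of the mice, the allele, or how deficiency was obtained, and the names of the deposited tables mark both groups as KO, with an extra T for the KO-labelled one, whose meaning is not stated. Whether replicates came from separate mice or from separate dishes is not given either, so the SDs, the n and the p-values measure the spread between these libraries, which may be technical.

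In the TCA cycle, acetyl-CoA made from pyruvate by the pyruvate dehydrogenase complex is joined to oxaloacetate and oxidised stepwise, which yields the NADH and succinate that feed the respiratory chain. The complex is switched off by pyruvate dehydrogenase kinases and on by phosphatases. Pyruvate carboxylase refills the cycle, while malic enzymes and ATP citrate lyase draw on its malate and citrate. Glud1 encodes glutamate dehydrogenase, which forms the cycle intermediate 2-oxoglutarate from glutamate, so its product enters the cycle between isocitrate dehydrogenase and oxoglutarate dehydrogenase. Differentiating muscle cells are known to gain oxidative enzymes.

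The total of estimated gene counts per library ranged from 16087057 to 30657153, and 15123 genes were tested, with a common biological coefficient of variation of 4.03%. Levels below are CPM (counts scaled to library depth, with TMM factors) within a gene, and TPM (transcript abundance corrected for length) between genes. Glud1 itself did not separate the labels in CPM: the log2 fold change was -0.02 in myoblasts, -0.09 in differentiated and -0.02 in fused myotubes. Its TPM in myoblasts ranged from 163 to 175 under the WT label and from 136 to 142 under the other, and it was lower under the KO label without overlap at 48 h (58.9 to 64.5 against 79.5 to 86.2) and at 72 h (75.7 to 82.6 against 101 to 106) as well. Every direction below follows the labels as given. The 8 myogenic markers summed to 1098 to 11789 TPM, and none was at 0 in any group, but their levels moved with the label, as given below. The fibroblast, endothelial, leukocyte, adipocyte and Schwann cell marker lists each stayed at or below 2.19 summed TPM in every library. In such bulk samples, fewer cells of a type and less RNA per cell cannot be told apart.

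The share of all transcripts that came from these 34 genes, as TPM, grew with differentiation, mostly between 48 and 72 h. Their summed level was 3794 ± 25.8 TPM (SD, n = 3) in WT myoblasts, 4250 ± 90.7 (SD, n = 3) in differentiated and 7344 ± 237 (SD, n = 4) in fused myotubes. The KO-labelled sums were 3860 ± 47.6 (SD, n = 3), 4237 ± 52.2 (SD, n = 2) and 7410 ± 113 (SD, n = 4). The ranges of the labels overlapped in differentiated and fused myotubes, and in myoblasts the lowest KO-labelled sum (3830) lay just above the highest WT one (3820). The steps did not share this growth equally. In WT libraries the 6 genes of the pyruvate carrier and pyruvate dehydrogenase summed to 577 ± 20.0 (SD, n = 3), 1104 ± 22.9 (SD, n = 3) and 1715 ± 49.1 (SD, n = 4) TPM at the 3 stages, and the 6 kinases and phosphatases to 75.4, 124 and 317. The 7 genes of the citrate and isocitrate steps went from 1033 through 923 to 1634 TPM, the 6 of the oxoglutarate and succinyl-CoA steps from 681 through 761 to 1310, and the 5 of the succinate and fumarate steps from 1196 through 1183 to 2251. The 4 genes of anaplerosis and export summed to 232 ± 1.73 (SD, n = 3), 154 ± 4.65 (SD, n = 3) and 116 ± 3.53 (SD, n = 4) TPM, the one group lower at each later stage.

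**Figure D1:**
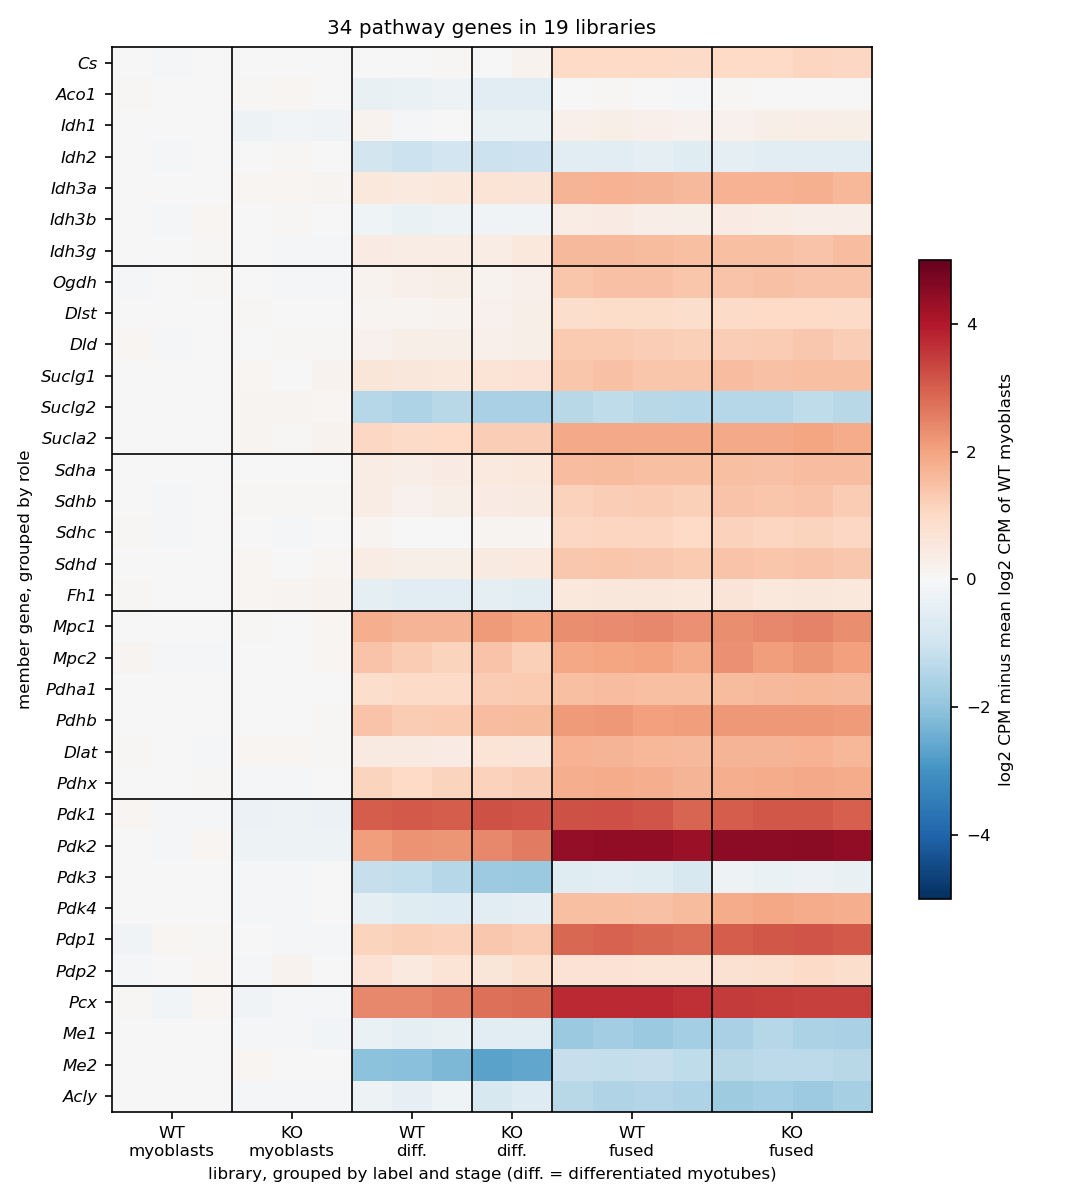
Level of the 34 genes (rows, ordered by step of the pathway and separated by lines) in each of the 19 libraries (columns, grouped by label and stage), as log2 CPM minus the mean log2 CPM of the WT myoblasts. Red is higher and blue lower than WT myoblasts; Pdk2 reaches the deepest red in fused myotubes, and Suclg2, Me1, Me2 and Acly are blue in both kinds of myotube.

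From WT myoblasts to differentiated myotubes, 21 of the 34 genes rose and 10 fell. Here and below a gene is called at a Benjamini-Hochberg adjusted p under 0.05 in the quasi-likelihood test of edgeR, over all genes tested. Over all genes tested, 42.4% rose and 42.6% fell, and 85.0% changed in either direction, so most genes changed whether members or not, and what set the list's counts apart from that background was the balance of rises and falls. The median log2 change was 0.30 in the 34 genes and 0.019 over all genes. At least 2-fold changes were made by 12 members and by 46.2% of all genes. Scaling by library size alone moved the median of all genes by -0.23 in this comparison. Under it 16 members were higher and 14 lower, where 34.4% of all genes were higher and 50.7% lower. Cs (-0.23), Idh1 (-0.21), Ogdh (-0.01), Dlst (-0.09) and Sdhc (-0.18) turned from a positive to a negative log2 change under it.

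From differentiated to fused WT myotubes, 29 members rose and 2 fell, where 37.4% of all genes rose, 37.7% fell and 75.1% changed. The median log2 change was 0.87 against -0.011 over all genes, and 14 members changed at least 2-fold, against 26.3% of all genes. Over the whole course, from myoblasts to fused myotubes, 27 members rose and 6 fell, with 42.2% of all genes higher, 43.4% lower and 85.5% changed. The median was 1.38 against -0.013, and 25 members changed at least 2-fold, against 50.5% of all genes. Taking both intervals, 19 members rose in each, 7 fell and then rose, 3 rose only after 48 h by this test, 2 rose and then did not pass the test, 2 fell in each (Me1 and Acly), and Suclg2 fell and then did not pass it. The share of all genes with each of these patterns was not computed, so the pattern counts are a description of the members.

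The KO-labelled libraries went through the same stages with similar counts. From myoblasts to differentiated myotubes 22 members were higher and 11 lower, where 41.3% and 42.5% of all genes were called in each direction and 83.7% in either. Under library size scaling these counts were 17 and 14, against 32.6% and 51.3% of all genes. From differentiated to fused myotubes 30 members were higher and 2 lower, against 35.8%, 34.4% and 70.2% of all genes. From myoblasts to fused myotubes 27 were higher and 6 lower, against 42.7%, 44.5% and 87.2%. The median log2 changes of the members were 0.39, 0.82 and 1.37.

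Between the labels, the 34 genes differed most often at 48 h, and by small amounts. In differentiated myotubes the KO-labelled level was higher for 12 members and lower for 7, which is 55.9% of the 34, where 11.0% of all genes were higher, 14.1% lower and 25.2% called in either direction. In myoblasts 2 were higher and 3 lower, against 4.86%, 6.69% and 11.6% of all genes. Leaving out any 1 myoblast library lowered this member count, as given at the end, and the share of all genes fell to between 6.15% and 8.90%. In fused myotubes 8 were higher and 3 lower, which is 32.4% of the 34, against 6.32%, 6.72% and 13.0%. No member differed by 2-fold, and the log2 fold changes lay between -0.56 and 0.35 at 48 h. The median over the members was 0.02, 0.08 and 0.04 at the successive stages, against 0.014, -0.012 and -0.006 over all genes. Taken without sign, the median log2 fold change was 0.05, 0.15 and 0.06 in the members and 0.11, 0.17 and 0.11 over all genes. The members were thus called more often without larger changes. When genes averaging below 1 CPM were dropped, the all-gene shares became 14.7%, 31.9% and 16.3%. The part of expression level in the member shares was not tested. Correcting for effective transcript length, the number of start positions a fragment can take, left 2 members called in myoblasts (0 higher), 12 in differentiated and 6 in fused myotubes (5 higher), where 3.86%, 14.2% and 5.44% of all genes were. Library size scaling gave 7 higher and 7 lower at 48 h, where it called 6.87% of all genes higher and 18.6% lower. DESeq2 size factors gave 1 higher and 3 lower in myoblasts, against 3.21% and 7.76% of all genes. The KO-labelled group at 48 h has only 2 libraries, and a fit to the libraries of that comparison alone called 12 members and 22.0% of the genes it tested. Per length, in TPM, the group means of 10 of the 12 members called higher at 48 h and of all 7 called lower differed in the same direction, and the libraries of the labels did not overlap for 5 and 6 of them. These members had been called on the same reads, and the same was not counted over all genes, so this is a description.

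Myogenic markers moved with the label as well. In myoblasts 5 of the 8 myogenic markers were lower under the KO label and 0 higher, among them Myog, a factor of early differentiation (64.6 to 82.5 CPM against 104 to 119 in WT), and Myh3, embryonic myosin (112 to 119 against 210 to 233). At 48 h 3 were lower and 1 higher: Pax7, the satellite cell factor, was at 5.08 to 6.19 CPM against 10.2 to 11.3, Myod1 at 645 to 668 against 770 to 869, Myf5 was lower by 0.19 on the log2 scale, and Mymk, which drives fusion, was at 1999 to 2229 against 1660 to 1828 CPM. At 72 h 1 was lower, Myf5 (log2 -0.31), and 0 higher. On the first principal component of all tested genes the KO-labelled libraries at 48 h lay at 61.2 and 61.8, between the WT libraries at 48 h (33.9 to 37.5) and those at 72 h (89.3 to 90.6). The part of these markers, and of that position, in the label differences of the 34 genes was not tested.

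The effect of the label itself was also compared between stages. From myoblasts to differentiated myotubes it became higher for 6 members and lower for 5, against 7.78%, 11.3% and, in either direction, 19.1% of all genes. From differentiated to fused myotubes it became higher for 6 and lower for 8, against 8.27%, 6.53% and 14.8%. From myoblasts to fused myotubes it became higher for 6 and lower for 1, against 5.75%, 4.55% and 10.3%. Library size scaling turned the balance of the first 2 of these, to 5 higher and 7 lower, against 5.42% and 15.2% of all genes, and to 7 higher and 4 lower, against 11.0% and 3.66%. In the third, DESeq2 size factors left 6 higher and 0 lower, against 6.51% and 3.37% of all genes, and the effective length offset 2 higher and 0 lower, against 2.94% and 1.45%.

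**Figure D2:**
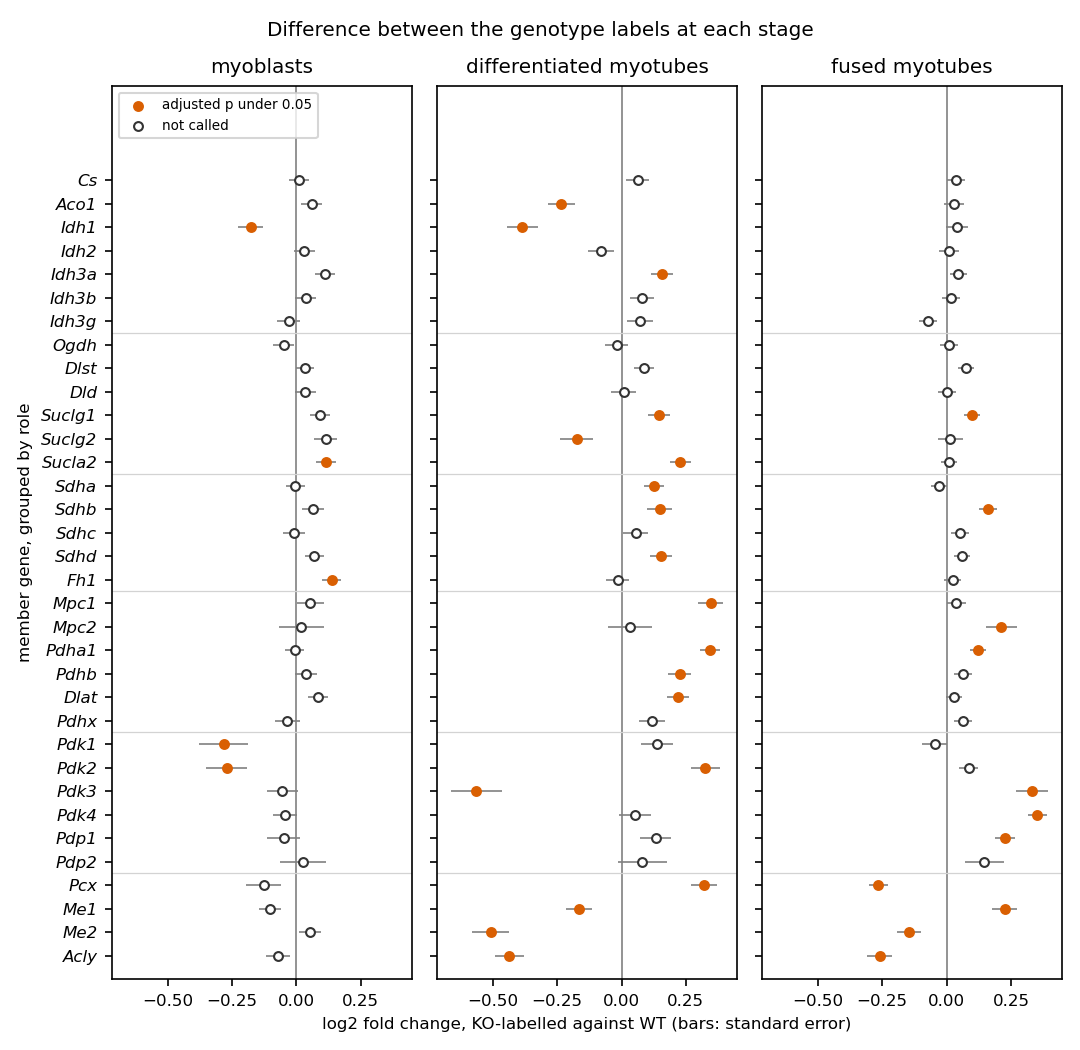
Log2 fold change of KO-labelled against WT libraries (x axis; bars are standard errors) for each of the 34 genes (y axis) at the 3 stages, with filled points for genes at an adjusted p under 0.05. Differentiated myotubes hold 19 filled points, fused myotubes 11 and myoblasts 5. Of the genes with a filled point at both 48 and 72 h, Pdk3, Pcx and Me1 lie on opposite sides of 0 at these stages.

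Pyruvate enters the mitochondrion through the carrier made of Mpc1 and Mpc2. Mpc1 was at 26.8, 27.3 and 27.2 CPM in WT myoblasts, 94.3, 87.6 and 87.8 in differentiated and 137, 141, 143 and 133 in fused myotubes. In KO-labelled libraries it was at 27.9, 27.5 and 28.9 CPM in myoblasts, 119 and 109 in differentiated and 137, 143, 150 and 137 in fused myotubes. The labels separated without overlap at 48 h, where both KO-labelled libraries were higher, and overlapped at 72 h. The rise in WT over the whole course was 5.10-fold (log2 2.35 ± 0.046 SE, edgeR adjusted p = 5.45e-26). At 48 h Mpc1 was 1.27-fold higher in KO-labelled libraries (log2 0.35 ± 0.049 SE, edgeR adjusted p = 5.59e-06). This difference was itself larger at 48 h than in myoblasts (log2 0.29, edgeR adjusted p = 0.00455, not called without KO-labelled differentiated replicate 1) and smaller at 72 h than at 48 h (log2 -0.31, edgeR adjusted p = 0.000968). Its partner Mpc2 rose by 1.94 on the log2 scale over the WT course. The labels overlapped in Mpc2 at 48 h (46.2, 41.4 and 36.8 CPM in WT, 45.7 and 38.8 in KO-labelled libraries). At 72 h Mpc2 was higher in KO-labelled libraries, at 82.4, 73.9, 78.2 and 70.5 CPM against 64.9, 67.9, 69.7 and 61.5 in WT (log2 0.21, edgeR adjusted p = 0.0182). The latter call was lost without WT replicate 1 or 4, without KO-labelled replicate 1 or 3, and with the effective length offset (log2 0.15, edgeR adjusted p = 0.159, in a range of 0.000142 to 0.159 over all alternatives).

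The 4 subunits in the list that are particular to pyruvate dehydrogenase rose together with the carrier. Pdha1 and Pdhb form the decarboxylating enzyme, Dlat the acetyltransferase, and Pdhx anchors the third enzyme to it. Pdha1 was at 253, 253 and 246 CPM in WT myoblasts, 459, 482 and 492 in differentiated and 715, 725, 703 and 706 in fused myotubes. In KO-labelled libraries it was at 247, 253 and 249, then 599 and 613, then 752, 769, 801 and 775 CPM. The labels overlapped in myoblasts and not at 48 or 72 h, where each KO-labelled library was above each WT one. The difference was 0.34 on the log2 scale at 48 h (edgeR adjusted p = 3.13e-07) and 0.12 at 72 h (edgeR adjusted p = 0.0102), a fall of the label effect by 0.22 (edgeR adjusted p = 0.00340). Pdhb and Dlat were likewise higher at 48 h in KO-labelled libraries, by 0.23 and 0.22, and Pdhx by 0.12, which did not pass the test (edgeR adjusted p = 0.0776). Pdhb went from 76.9, 80.0 and 78.0 CPM in WT myoblasts to 338, 350, 326 and 331 in fused myotubes (log2 2.10), the largest rise of the 4, whereas Dlat rose mainly after 48 h (log2 0.44, then 1.24). The call for Dlat at 48 h was lost with the effective length offset (log2 0.15, edgeR adjusted p = 0.121, in a range of 1.14e-06 to 0.121).

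The 4 pyruvate dehydrogenase kinases, Pdk1 to Pdk4, phosphorylate and inactivate the complex, and their courses differed from each other. Pdk1 was at 9.32, 8.51 and 8.49 CPM in WT myoblasts, 72.1, 73.9 and 71.0 in differentiated and 79.0, 81.7, 77.4 and 65.3 in fused myotubes. It rose 8.23-fold by 48 h (log2 3.04 ± 0.071 SE, edgeR adjusted p = 4.08e-24) and did not pass the test between 48 and 72 h (log2 0.06, edgeR adjusted p = 0.277), where the groups overlapped. Pdk2, the most widely expressed of the family, was at 10.8, 9.85 and 11.2 CPM in WT myoblasts, 44.7, 49.7 and 49.0 in differentiated and 225, 229, 230 and 211 in fused myotubes. It rose by 4.39 on the log2 scale over the course (± 0.056 SE, edgeR adjusted p = 3.53e-30), the largest change among the 34 genes in WT, in nearly equal log2 steps of 2.16 and 2.22.

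Pdk3 and Pdk4 fell before they rose. Pdk3 was at 23.3, 23.1 and 23.0 CPM in WT myoblasts, 10.5, 9.88 and 8.66 in differentiated and 15.4, 15.5, 15.2 and 13.4 in fused myotubes, a log2 change of -1.26 followed by 0.62. Pdk4, known as the kinase induced by fasting and fat oxidation, was at 45.3, 43.4 and 43.7 CPM, then 31.3, 29.0 and 28.2, then 126, 126, 122 and 132 (log2 -0.59, then 2.11). No 2 stages overlapped for either gene. Per length, the sum of the 4 kinases was divided almost evenly between Pdk3 (36.5% ± 2.54, SD, n = 3) and Pdk4 (38.6% ± 0.740) in WT myoblasts, with Pdk1 at 11.8% and Pdk2 at 13.1%. Pdk1 took the largest share in differentiated myotubes (41.4% ± 0.629, SD, n = 3) and Pdk2 in fused ones (54.4% ± 1.08, SD, n = 4), where Pdk3 was down to 5.46% ± 0.737. These shares did not overlap between any 2 WT stages.

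**Figure D3:**
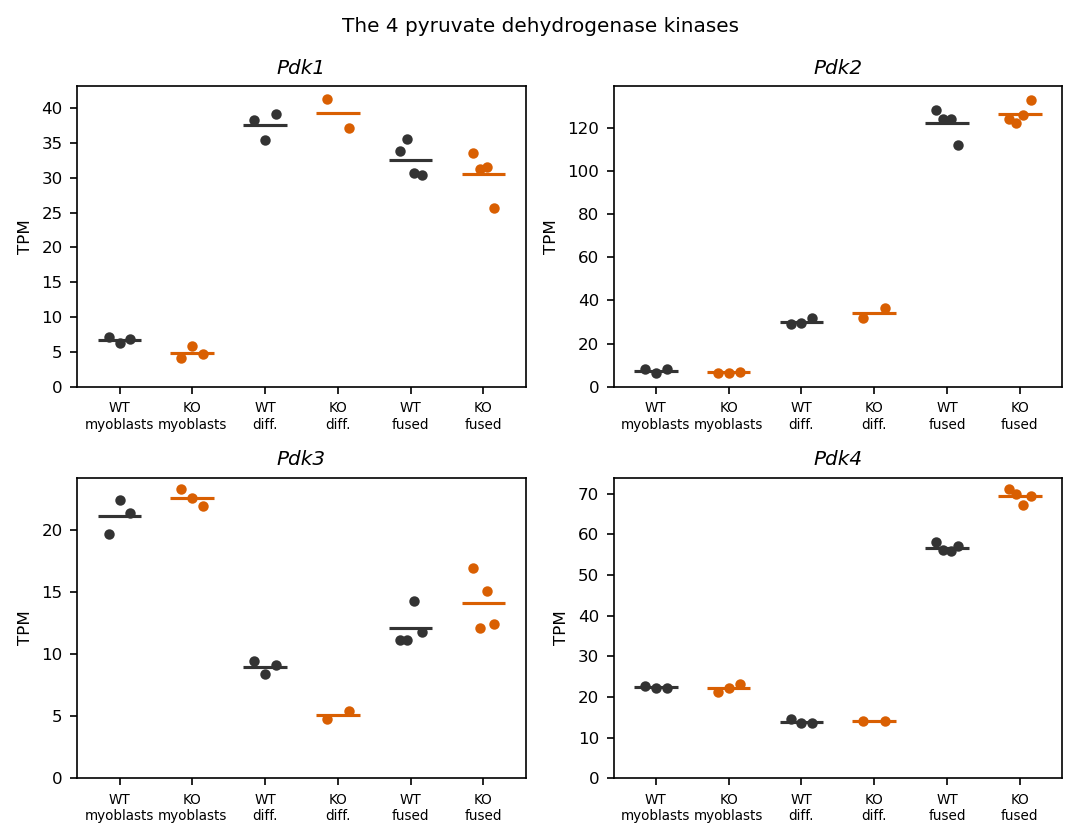
TPM of the 4 pyruvate dehydrogenase kinases (y axis, from 0) in each library (points), by label and stage, with the group mean as a line; KO-labelled libraries are orange. Pdk1 reaches its level by 48 h, Pdk2 rises at both steps, Pdk3 is lowest at 48 h, and all 4 KO-labelled points of Pdk4 at 72 h lie above the WT ones.

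Of the 34 genes, Pdk3 differed most between the labels at 48 h. Pdk3 was at 6.58 and 6.45 CPM in KO-labelled differentiated myotubes, below all 3 WT libraries (8.66 to 10.5), and at 19.6, 18.2, 18.7 and 17.8 CPM in fused myotubes, above all 4 WT libraries (13.4 to 15.5). It was thus 1.48-fold lower at 48 h (log2 -0.56 ± 0.10 SE, edgeR adjusted p = 0.000119) and 1.26-fold higher at 72 h (log2 0.33 ± 0.062 SE, edgeR adjusted p = 0.000538), and the label effect changed by 0.89 on the log2 scale between these stages (edgeR adjusted p = 5.76e-06). Per length the 72 h groups overlapped, with 11.1 to 14.3 TPM for WT against 12.1 to 16.9 for KO-labelled libraries, and with the effective length offset that call was lost (log2 0.26, edgeR adjusted p = 0.192, in a range of 0.000146 to 0.192). Pdk4 showed no separation at 24 or 48 h. Its KO-labelled values at 72 h were 161, 170, 161 and 155 CPM, all above the highest WT library (132), and 1.28-fold higher (log2 0.35 ± 0.036 SE, edgeR adjusted p = 1.08e-07). That call was kept under every alternative run.

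Pdk1 and Pdk2 were both lower in KO-labelled myoblasts and above all WT libraries at 48 h. In KO-labelled myoblasts Pdk1 was at 7.10, 7.33 and 7.23 CPM, below all WT libraries (log2 -0.28, edgeR adjusted p = 0.0491), a call lost when any 1 library of either myoblast group was left out. At 48 h it was at 80.7 and 78.2 CPM against 71.0 to 73.9 in WT, which did not pass the test (log2 0.14, edgeR adjusted p = 0.114), and at 72 h the labels overlapped. The change of its label effect from myoblasts to differentiated myotubes was 0.42 (edgeR adjusted p = 0.00889). Pdk2 was at 8.79, 8.93 and 8.80 CPM in KO-labelled myoblasts (log2 -0.27, edgeR adjusted p = 0.0221), at 56.1 and 63.9 in differentiated (log2 0.33, edgeR adjusted p = 0.000116) and at 237, 238, 243 and 231 in fused myotubes (log2 0.09, edgeR adjusted p = 0.146). The myoblast call of Pdk2 was lost without WT replicate 1 or 3, without KO-labelled replicate 1 or 3, or with the effective length offset (log2 -0.17, edgeR adjusted p = 0.438, in a range of 0.00712 to 0.438). The change of the Pdk2 label effect from myoblasts to differentiated myotubes was 0.60 (edgeR adjusted p = 5.37e-05). The later change of -0.24 was not called with library size scaling, with the effective length offset, or without KO-labelled differentiated replicate 2, which took it to -0.14.

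The 2 phosphatases reactivate the complex. Pdp1, whose activity calcium stimulates, was at 17.4, 21.3 and 20.8 CPM in WT myoblasts, 43.3, 45.5 and 43.7 in differentiated and 146, 152, 143 and 137 in fused myotubes, a 7.30-fold rise. Its KO-labelled values at 72 h were 161, 172, 177 and 166 CPM, above all WT libraries (log2 0.23, edgeR adjusted p = 0.000328). Pdp2 stayed low, between 6.72 and 14.2 CPM over all 19 libraries. It rose in WT by 48 h (log2 0.63) and passed no test between the labels. Per length, Pdp1 exceeded Pdp2 7.22-fold in WT myoblasts and 31.6-fold in fused myotubes.

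At the entry of the cycle itself, Cs (citrate synthase) passed no test until 48 h and then rose. It was at 607, 577 and 603 CPM in WT myoblasts, 600, 593 and 625 in differentiated and 1192, 1197, 1180 and 1160 in fused myotubes. The first 2 groups overlapped and the third was 1.95-fold above the second (log2 0.96 ± 0.038 SE, edgeR adjusted p = 2.75e-18). The labels overlapped in Cs at every stage. The 3 subunits of the NAD-dependent isocitrate dehydrogenase, which runs the cycle forward, rose over the course by 1.69 (Idh3a), 0.34 (Idh3b) and 1.57 (Idh3g) on the log2 scale. Idh3b overlaps Nop56 on the opposite strand, and whether counting used strand is not stated, so its counts may hold reads of that gene. The NADP-dependent mitochondrial enzyme Idh2 went the other way, from 189, 178 and 189 CPM in WT myoblasts to 98.0, 87.6 and 95.8 in differentiated and 124, 126, 135 and 121 in fused myotubes (log2 -0.98, then 0.43). The TPM ratio of Idh3a to Idh2 was 1.06 ± 0.0332 (SD, n = 3), 2.86 ± 0.0742 (SD, n = 3) and 4.97 ± 0.209 (SD, n = 4) at the WT stages.

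The cytosolic members of these steps, Idh1 (NADP-dependent isocitrate dehydrogenase) and Aco1 (cytosolic aconitase, which is also an iron regulatory protein), held 3 of the 4 label calls of the citrate and isocitrate steps. In myoblasts Idh1 had 45.4, 47.3 and 46.7 CPM under the WT label and 39.3, 42.3 and 41.6 CPM under the KO label. At 48 h the WT libraries had 52.1, 44.3 and 47.5 CPM and the KO-labelled ones 36.7 and 36.6, and at 72 h the groups overlapped (54.3 to 56.3 against 54.0 to 58.5). KO-labelled libraries were thus lower at 24 h (log2 -0.18, edgeR adjusted p = 0.0150) and 48 h (log2 -0.39, edgeR adjusted p = 1.65e-05), and the effect rose by 0.43 from 48 to 72 h (edgeR adjusted p = 0.000174). The 24 h call was lost without WT replicate 2 or 3 or without KO-labelled replicate 1. Aco1 was called at 48 h alone, at 41.1 and 43.2 CPM against 47.6, 49.2 and 51.7 in WT (log2 -0.23, edgeR adjusted p = 0.00138). Of the 5 other genes of these steps, Idh3a alone was called at 48 h (log2 0.16), a call lost without KO-labelled replicate 1 and with library size scaling, and none was called at 24 or 72 h.

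The next steps run through oxoglutarate dehydrogenase and succinyl-CoA ligase. Ogdh, Dlst and Dld, the 3 enzymes of oxoglutarate dehydrogenase (Dld also serves pyruvate dehydrogenase), rose over the WT course by 1.42, 0.91 and 1.27 on the log2 scale, most of it after 48 h. None of the 3 was called between the labels at any stage, and their log2 fold changes lay between -0.05 and 0.09. Succinyl-CoA ligase consists of the common subunit Suclg1 and either Sucla2, which makes the enzyme form ATP, or Suclg2, which makes it form GTP. Sucla2 was at 82.4, 85.5 and 84.0 CPM in WT myoblasts, 173, 164 and 169 in differentiated and 316, 315, 310 and 310 in fused myotubes, a 3.72-fold rise. Suclg2 was at 72.2, 73.2 and 70.7 CPM, then 26.5, 25.0 and 27.7, then 27.2, 29.6, 27.4 and 26.5, a 2.72-fold fall by 48 h after which the groups overlapped. Per length, Sucla2 exceeded Suclg2 1.42-fold (SD 0.150, n = 3) in WT myoblasts and 13.4-fold (SD 1.36, n = 4) in fused myotubes.

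At 48 h the labels differed in both partners, in opposite directions. Sucla2 was at 197 and 198 CPM in KO-labelled libraries, above the WT ones (log2 0.23, edgeR adjusted p = 0.000122), and Suclg2 at 23.7 and 23.2 CPM, below them (log2 -0.17, edgeR adjusted p = 0.0477). The Suclg2 call was lost under most alternatives, with log2 -0.05 under the effective length offset (edgeR adjusted p = 0.880, in a range of 0.0101 to 0.880). The ratio of Sucla2 to Suclg2 overlapped between labels at all 3 stages. In Sucla2 the effect fell by 0.22 from 48 to 72 h (edgeR adjusted p = 0.00399). Sucla2 was also called in myoblasts (log2 0.12, edgeR adjusted p = 0.0461), which most alternatives ended. Suclg1 was higher by 0.15 at 48 h and by 0.10 at 72 h, and both calls were lost with the effective length offset.

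The 4 subunits of succinate dehydrogenase, which is also complex II of the respiratory chain, all rose over the WT course. Sdha rose by 1.54, Sdhb by 1.21, Sdhc by 1.04 and Sdhd by 1.35 on the log2 scale, and 0.93 to 1.17 of this came after 48 h. Sdha, the flavin subunit that oxidises succinate, was at 263, 274 and 271 CPM in WT myoblasts, 345, 343 and 358 in differentiated and 795, 801, 773 and 774 in fused myotubes. Fh1 (fumarase) fell and then rose, from 110, 104 and 106 CPM through 78.3, 74.2 and 74.3 to 155, 160, 156 and 154. At 48 h Sdha, Sdhb and Sdhd were higher in KO-labelled libraries by 0.13, 0.15 and 0.15 on the log2 CPM scale, and Sdhc by 0.06, which did not pass the test. Per length the labels were close at 48 h: mean levels in WT and KO-labelled libraries were 201 and 198 TPM for Sdha, 251 and 253 for Sdhb, and 254 and 256 for Sdhd. The ranges of the labels overlapped for Sdhb and Sdhd, and those for Sdha met at 199 TPM. The calls for these 3 were lost with library size scaling and without KO-labelled replicate 2. Sdhb was the subunit called at 72 h as well, at 373, 364, 373 and 337 CPM against 312, 330, 333 and 321 in WT (log2 0.16, edgeR adjusted p = 0.00339). Fh1 was higher in KO-labelled myoblasts, at 115, 116 and 120 CPM (log2 0.14, edgeR adjusted p = 0.0154), a call lost without WT replicate 2 or 3, without KO-labelled replicate 3, and with the effective length offset.

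Of the enzymes that refill or drain the cycle, one rose and the other 3 fell. Pcx, pyruvate carboxylase, makes oxaloacetate from pyruvate. It was at 10.2, 8.95 and 10.4 CPM in WT myoblasts, 52.3, 51.3 and 56.3 in differentiated and 129, 129, 129 and 125 in fused myotubes, a 12.9-fold rise (log2 3.69 ± 0.051 SE, edgeR adjusted p = 1.72e-29). In KO-labelled libraries it was at 8.62, 9.26 and 9.39 CPM in myoblasts, 65.6 and 67.7 in differentiated and 110, 108, 104 and 104 in fused myotubes. KO-labelled libraries were all above WT at 48 h and all below it at 72 h. The log2 fold change was 0.32 (edgeR adjusted p = 2.27e-05) and then -0.27 (edgeR adjusted p = 7.62e-06), and the change of -0.59 between them passed the test as well (edgeR adjusted p = 2.07e-07). With the effective length offset the size of both was larger (log2 0.48 and -0.37) and neither was called (edgeR adjusted p = 0.0766 and 0.110, in ranges of 8.82e-08 to 0.0766 and of 4.15e-09 to 0.110). Pcx overlaps Lrfn4 on the opposite strand. Relative to Pdha1, Pcx had a TPM ratio of 0.118 ± 0.00917 (SD, n = 4) in the WT fused myotubes, above and without overlap with the 0.0841 ± 0.0125 (SD, n = 4) of the KO-labelled ones.

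Me1, the cytosolic NADP-dependent malic enzyme, fell at each step, from 112, 113 and 111 CPM in WT myoblasts through 87.8, 80.3 and 86.6 to 30.8, 33.8, 30.7 and 34.7, 3.44-fold in all. The mitochondrial Me2 fell 4.39-fold by 48 h, from 81.7, 78.3 and 79.3 CPM to 19.1, 18.6 and 17.0, and rose again to 35.8, 34.5, 35.9 and 33.5. The balance of the 2 malic enzymes shifted with stage. Their TPM ratio, Me1 to Me2, was 1.40 ± 0.0749 (SD, n = 3) in WT myoblasts, 4.47 ± 0.343 (SD, n = 3) in differentiated and 0.913 ± 0.0852 (SD, n = 4) in fused myotubes, where Me1 was below Me2 in 3 of the 4 libraries. In KO-labelled fused myotubes the ratio was 1.21 ± 0.101 (SD, n = 4), with each library (1.10 to 1.34) above each WT one (0.807 to 1.02). Me1 was at 75.8 and 75.6 CPM in KO-labelled differentiated myotubes, below WT (log2 -0.17, edgeR adjusted p = 0.0189), and at 36.4, 41.2, 37.5 and 36.9 in fused ones, above WT (log2 0.22, edgeR adjusted p = 0.00236). Its 48 h call was lost without either KO-labelled library, without WT replicate 1 or 3, and with the effective length offset. Me2 was lower at both stages, at 12.6 and 13.0 CPM at 48 h (log2 -0.51, edgeR adjusted p = 7.5e-06) and at 30.4, 32.6, 32.2 and 30.7 CPM at 72 h (log2 -0.14, edgeR adjusted p = 0.0351). The 72 h call of Me2 was lost without WT replicate 1 or 3, without KO-labelled replicate 1, 3 or 4, with DESeq2, with no filter on low counts, or with the effective length offset.

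Acly, ATP citrate lyase, turns exported citrate into acetyl-CoA for lipid synthesis. It was at 224, 227 and 225 CPM in WT myoblasts, 191, 170 and 193 in differentiated and 85.2, 79.8, 81.0 and 78.3 in fused myotubes, a 2.78-fold fall. In KO-labelled libraries it was at 218, 214 and 210 CPM, then 128 and 145, then 66.1, 68.9, 64.3 and 72.1. Each KO-labelled myotube library was below each WT one of its stage. The log2 fold change was -0.44 at 48 h (edgeR adjusted p = 1.1e-06) and -0.26 at 72 h (edgeR adjusted p = 0.000421). Both calls were kept under every alternative run. The summed TPM of the 4 genes lay lower in KO-labelled libraries without overlap at 24 h (216 to 221 against 230 to 233 in WT), at 48 h (123 to 129 against 149 to 159) and at 72 h (94.9 to 103 against 111 to 120). The genes behind this sum differed with stage. At 24 h 0 of the 4 were called on their own. At 48 h 3 were called lower and Pcx higher, and at 72 h 3 were called lower and Me1 higher.

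For 11 ratios between related enzymes, each in 6 comparisons, libraries were permuted exactly in a two-sided test. Of the 66 tests, 46 had groups that did not overlap. These include every WT stage change, while in most comparisons between the labels the groups overlapped. The share for ratios of other genes was not computed. With 3 against 3 or 2 libraries the exact test cannot go below p = 0.1, and with 4 against 3 or 4 not below 0.0286. Only 33 of the 66 can reach that value, and with adjustment over the 66 no p can fall below 0.0571, so the adjusted test could call no ratio and says nothing of which differed. At 72 h the exact permutation test gave p = 0.0286 for Me1 to Me2, for Pcx to Pdha1, for Pdp1 to Pdp2 and for the kinase shares of Pdk1 (12.7% against 14.6% in WT) and Pdk4 (28.8% against 25.5%), each with an adjusted p of 0.0725.

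**Figure D4:**
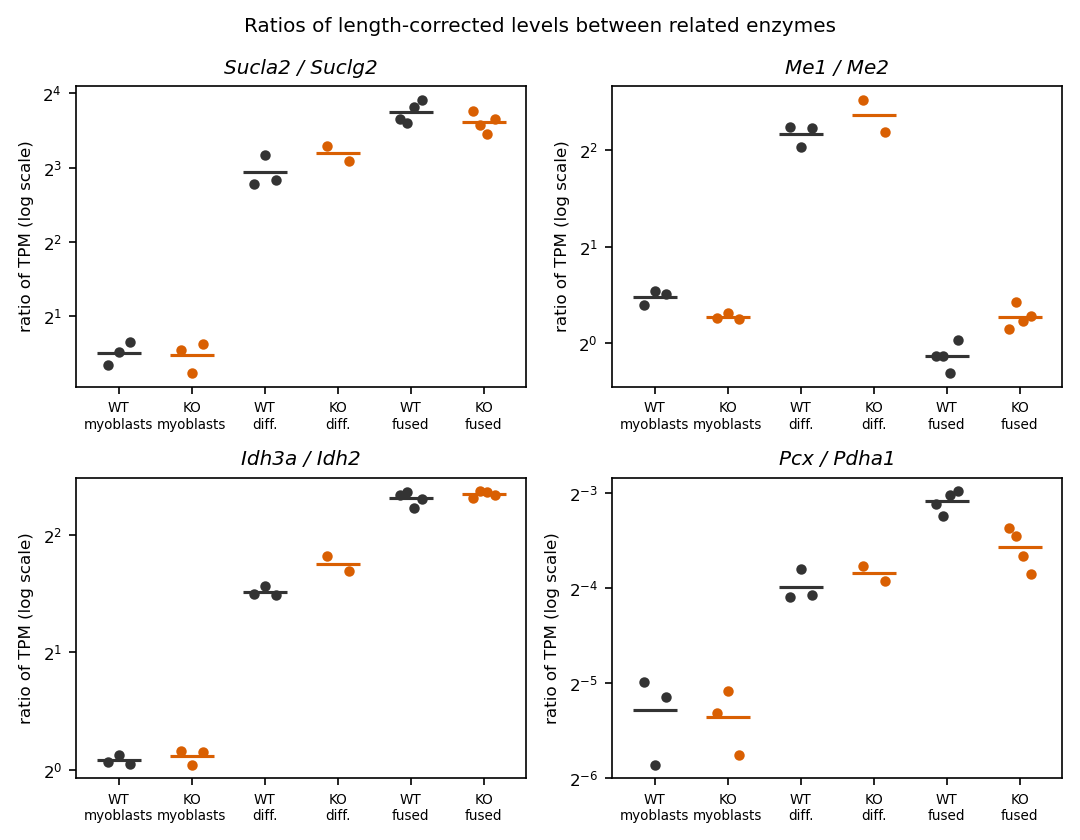
Ratio of TPM between 4 pairs of enzymes (y axis, log scale) in each library (points) by label and stage, with the group mean as a line; KO-labelled libraries are orange. Sucla2 to Suclg2 and Idh3a to Idh2 rise with stage in both labels, Me1 to Me2 peaks at 48 h, and Pcx to Pdha1 lies lower in all 4 KO-labelled fused libraries than in the WT ones.

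The label effect at 48 h was set beside the change over the WT course from myoblasts to fused myotubes, 2 comparisons with no library in common. Of the 19 members called at 48 h, 18 had a label difference of the same sign as their fitted change over the WT course (94.7%), and Idh1 was the exception. The 18 include Aco1, whose change over that course was -0.01 and was not called. Among all 3810 genes called at 48 h this held for 83.9%. Across the 34 members Pearson's r was 0.80, and 0.40 across all 15123 genes, as a description, since genes are not independent replicates and these share libraries and scaling. For the myoblast label effect and the WT change from 48 to 72 h, r was 0.05 across the members and -0.10 across all genes. For the fused label effect and the WT change up to 48 h it was -0.11 and 0.05. In myoblasts, 2 of 5 called members had the sign of the WT change from 48 to 72 h (all genes 38.9%). In fused myotubes, 7 of 11 had the sign of the WT change up to 48 h (all genes 57.5%). The share of TPM from the 13 mitochondrially encoded genes moved with the label at 48 h too, at 9.71% to 11.7% for WT against 13.1% to 14.2% for KO-labelled libraries. Its part in the member differences was not tested.

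The deposited tables give values per transcript, which show whose product a gene's count reflects. Pdk1 had 2 main transcripts. Pdk1-201, the coding one of 11 exons, held 34.6% ± 6.92 (SD, n = 3) of the gene's counts in WT myoblasts, 60.8% ± 1.31 (SD, n = 3) in differentiated and 74.6% ± 4.63 (SD, n = 4) in fused myotubes. Pdk1-208, of 9 exons and annotated as non-coding, went from 55.8% ± 6.77 through 34% (33.1% to 34.6%) to 21.4% ± 4.05. The groups did not overlap, so the coding transcript made up more of the gene's counts at each later stage. Acly-201 held 13.5% ± 2.74 (SD, n = 3) in WT myoblasts and at most 0.00608% in WT fused myotubes, while Acly-203 went from 62.3% ± 1.53 to 81.2% ± 5.41. Idh3a counts were spread over the coding Idh3a-205 (30.4% in WT myoblasts), Idh3a-204, annotated as a target of nonsense-mediated decay (42.8%), and Idh3a-203, which retains an intron (25.4%). These shares come from a model that divides shared reads, and no test was run on them.

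Pcx transcripts began at either of 2 start sites on chromosome 19, at 4510472 or, inside the gene, at 4594346 (GRCm38). The upstream site held 58.7% ± 6.43 (SD, n = 3) of the counts in WT differentiated and 61.8% ± 7.64 (SD, n = 4) in fused myotubes, and the downstream site 40.4% ± 7.53 and 36.3% ± 7.09. In WT myoblasts, where Pcx is scarce, single libraries gave 47.9% to 100% to the upstream site, so the start used there was not resolved at this depth. The sequences around both sites are shown because the counts of Pcx in myotubes come from both; the downstream RefSeq start differs slightly from the GENCODE one. They, and the others below, run from 250 bases before to 50 bases from the start site on, are from RefSeq on build GRCm38.p6, and were available for 30 of the 34 genes. Capitals mark 4 words searched on both strands: TCAAGGTCA, bound by estrogen-related receptors; the NRF1 site with 1 free base; CAGCTG, an E-box of the kind bound by MyoD; and GGGCGG, bound by Sp1. Words that touch merge into 1 run of capitals.

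Pcx, upstream start, chr19:4510222-4510521, plus strand: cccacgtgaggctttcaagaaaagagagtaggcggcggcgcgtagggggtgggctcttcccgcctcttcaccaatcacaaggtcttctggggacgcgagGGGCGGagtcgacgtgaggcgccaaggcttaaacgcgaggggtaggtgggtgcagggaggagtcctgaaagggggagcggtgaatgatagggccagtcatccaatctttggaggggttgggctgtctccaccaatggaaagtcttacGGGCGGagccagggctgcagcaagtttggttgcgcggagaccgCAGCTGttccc

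Pcx, downstream start, chr19:4594069-4594368, plus strand: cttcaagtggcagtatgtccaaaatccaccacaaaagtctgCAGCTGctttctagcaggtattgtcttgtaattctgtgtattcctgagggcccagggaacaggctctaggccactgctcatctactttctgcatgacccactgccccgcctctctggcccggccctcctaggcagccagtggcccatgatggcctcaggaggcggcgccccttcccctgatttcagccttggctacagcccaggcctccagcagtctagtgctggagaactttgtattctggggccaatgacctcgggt

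The upstream Pcx sequence held 2 GGGCGG words and 1 CAGCTG, at position 40 counted from 1 at the start site, and the downstream one 1 CAGCTG at position -209. Pcx spans chr19:4510472-4621752. The promoters of Pdk1 (chr2:71873224-71903858) and Pdk2 (chr11:95026258-95041354) are shown next because these kinases rose most.

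Pdk1, chr2:71872974-71873273, plus strand: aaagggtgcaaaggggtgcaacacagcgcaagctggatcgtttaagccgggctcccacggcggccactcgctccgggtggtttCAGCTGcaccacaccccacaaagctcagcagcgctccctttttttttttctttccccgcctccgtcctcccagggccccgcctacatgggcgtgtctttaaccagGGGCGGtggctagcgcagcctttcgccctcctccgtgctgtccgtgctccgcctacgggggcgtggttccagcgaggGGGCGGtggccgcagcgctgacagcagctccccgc

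Pdk2, chr11:95041322-95041621, minus strand: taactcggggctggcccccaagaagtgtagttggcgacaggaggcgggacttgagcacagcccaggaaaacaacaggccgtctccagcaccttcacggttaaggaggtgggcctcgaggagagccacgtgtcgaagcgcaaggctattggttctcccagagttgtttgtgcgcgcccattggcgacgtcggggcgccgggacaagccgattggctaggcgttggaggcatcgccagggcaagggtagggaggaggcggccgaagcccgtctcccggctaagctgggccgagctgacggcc

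The Pdk1 sequence held 1 CAGCTG and 2 GGGCGG words, and the Pdk2 one none of the 4 words. Each of these genes has another RefSeq start, not shown, whose sequence held none of the 4 words. CAGCTG was in the promoters of 3 of the 30 genes with an entry (Dld, Pcx and Pdk1), which is 10%, against 18.3% of 27025 genes in the table and 18.5% of the tested ones. GGGCGG was in 22 of 30, or 73.3%, against 38.2% of all genes and 66.5% of the tested ones. TCAAGGTCA was in Sdhd alone, against 0.466% of all genes and 0.315% of the tested ones, and that promoter is shown for it.

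Sdhd, chr9:50603800-50604099, minus strand: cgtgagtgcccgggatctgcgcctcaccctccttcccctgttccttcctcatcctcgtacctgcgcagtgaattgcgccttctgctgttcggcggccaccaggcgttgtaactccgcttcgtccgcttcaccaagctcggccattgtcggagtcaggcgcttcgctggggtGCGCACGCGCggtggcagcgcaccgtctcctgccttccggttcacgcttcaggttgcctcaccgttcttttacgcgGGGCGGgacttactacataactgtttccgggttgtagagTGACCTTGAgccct

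In Sdhd the word lies on the reverse strand, at position 37, and a copy of the NRF1 site with a free base lies upstream at position -79. That NRF1 word was in 4 of 30 genes (Dld, Sdha, Sdhd and Sucla2), or 13.3%, against 5.19% of all genes and 10.8% of the tested ones. The strict NRF1 site was in none of the 30, against 1.07% of all genes and 2.15% of the tested ones. A word in a sequence is a description and not a bound site.

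Of 37 other genes of the pathway and its surroundings, 36 were tested. Over the WT course 28 rose and 6 fell, beside 42.2% and 43.4% of all genes. Among the rises were those of Acss2, which makes acetyl-CoA from acetate (log2 4.57), and Got1, an aspartate aminotransferase (2.40). Among the falls were those of Pck2, the mitochondrial phosphoenolpyruvate carboxykinase (-3.36), and Slc25a1, the citrate carrier (-2.66). The mitochondrial malate dehydrogenase Mdh2, which closes the cycle, rose by 0.87. Between the labels 7 of the 36 were called in myoblasts (3 higher and 4 lower), 9 in differentiated myotubes (5 and 4) and 5 in fused myotubes (3 and 2), which are shares of 19.4%, 25.0% and 13.9% beside 11.6%, 25.2% and 13.0% of all genes, so that at 48 and 72 h they were called about as often as genes in general. At 48 h Pck2 (-0.86) and Slc25a10, the dicarboxylate carrier (-0.28), were among those lower in KO-labelled libraries, and Mdh1 (0.31), Bola3 (0.31) and Ldhb (0.24) among those higher. The label effect on Pck2 changed by 1.02 between 48 and 72 h.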

How the data were processed

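RNA was extracted with RNeasy Plus Micro columns and sequenced from polyA TruSeq libraries, per the labels' protocols. The authors quantified transcripts with kallisto 0.46.1, and the deposited estimated counts and TPM per transcript are its output; bcl2fastq 2.20, fastp 0.20.0, edgeR 3.36 and build GRCm38.p6 are named in the submitters' processing notes. Such estimates divide reads among transcripts by a model, which can move reads between related or overlapping genes. Of 121843 transcripts, 121018 matched GENCODE M21; the other 825 held 0.255% to 0.507% of counts and were left out. Estimated counts were summed per gene and rounded. edgeR 4.0.16 (R 4.3.3, limma 3.58.1) was fitted to all 19 libraries with 6 group coefficients, TMM factors (0.914 to 1.165) and its default filter, leaving 15123 genes, and DESeq2 1.42.0 was an alternative. Replicates of a group differed beyond sampling noise (chi-square per degree of freedom 2.07 to 7.06). Ratios used TPM with a pseudocount of 0.1. The edgeR fit was tested on simulated counts, with changes planted in KO-labelled myoblasts alone, so recovery of changes at the other stages was not examined. Alternatives changed scaling, filter, tool, libraries fitted, replicate block, effective length, and gene length or GC trend, and left out each library. All 34 members are named; some other genes of the pathway lists are not reported here. The members and lists were chosen with earlier results of these data known.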

Additional observations from a re-analysis of the deposited data

Results flagged for a closer look

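WT fused replicate 4 stood below the other 3 libraries of its group for Pdk3 (13.4 CPM) and Pcx (125 CPM), 2 of 68 groups of 4 examined, where chance gives about 1 in 20.

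For the following members the difference between labels changed from one stage to another by edgeR's interaction test, given as log2 differences. From myoblasts to differentiated myotubes it changed for Aco1 (-0.29), Suclg2 (-0.29), Mpc1 (0.29), Pdha1 (0.35), Pdhb (0.19), Pdk1 (0.42), Pdk2 (0.60), Pdk3 (-0.51), Pcx (0.45), Me2 (-0.56) and Acly (-0.36).

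From differentiated to fused myotubes it changed for Aco1 (0.26), Idh1 (0.43), Sucla2 (-0.22), Sdha (-0.16), Mpc1 (-0.31), Pdha1 (-0.22), Pdhb (-0.16), Dlat (-0.19), Pdk2 (-0.24), Pdk3 (0.89), Pdk4 (0.30), Pcx (-0.59), Me1 (0.39) and Me2 (0.36). With the effective length offset fewer members were called both here and from myoblasts to differentiated myotubes, as counted below.

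From myoblasts to fused myotubes it changed for Idh1 (0.22), Pdk2 (0.36), Pdk3 (0.38), Pdk4 (0.40), Pdp1 (0.28), Me1 (0.33) and Me2 (-0.20). With the effective length offset, Pdk2 (0.25), Pdk3 (0.15), Pdp1 (0.26), Idh1 (0.28) and Me2 (-0.26) were no longer called here.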

How the results depend on the processing

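Of 408 gene-by-comparison results for the 34 members, 260 were called. With DESeq2 size factors 256 of these calls were kept, with library size only 234, with no filter on low counts 247, with a mean CPM of at least 1 259, with the DESeq2 test 255, with only the libraries compared 251, with the effective length offset 227, with the gene length trend removed 256, and with the length and GC trend removed, an alternative chosen after seeing the data, 255. The cause was not tested where calls were lost. The label difference in myoblasts was the least settled: 5 members were called, but 3 with library size only, 9 with only the libraries compared, 2 with the effective length offset, 3 with the length and GC trend removed, and 0 to 4 when 1 library was left out (0 without WT replicate 3). Of all genes 11.6% were called in the main fit. In these alternatives, in the same order, the share was 10.8%, 19.7%, 3.86% and 13.5%, and without WT replicate 3 it was 6.15%. In differentiated myotubes 19 became 12 with only the libraries compared and 12 with the effective length offset, where 25.2% of all genes became 22.0% and 14.2%. In fused myotubes 11 became 6 with that offset, where 13.0% of all genes became 5.44%. The changes of the label effect between stages were called for 7, 7 and 2 members with it, in place of 11, 14 and 7. Of all genes, 9.61%, 6.49% and 4.40% were called with it, in place of 19.1%, 14.8% and 10.3%. The last of these member counts ranged from 4 to 7 when 1 library was left out.

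Library size only, which moved the median of all genes by -0.231 to -0.353 in the comparisons concerned, reversed WT log2 changes from myoblasts to differentiated myotubes for Cs (-0.23), Idh1 (-0.21), Ogdh (-0.01), Dlst (-0.09) and Sdhc (-0.18), and that to fused myotubes for Idh1 (-0.07). In KO-labelled libraries it reversed Cs (-0.23), Ogdh (-0.04), Dlst (-0.09), Dld (-0.07) and Sdhc (-0.17) at 48 h and Idh3b (-0.0023) at 72 h. With the length trend removed, Aco1 over the WT course became 0.10 and Sdhc in KO-labelled libraries at 48 h became -0.0045, or -0.06 with GC as well.

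With the replicate block, 5, 18 and 10 members were called between labels at the 3 stages, where 11.0%, 24.2% and 12.3% of all genes were. Of the 260 calls, 256 were kept. Libraries of the same number did not deviate together (9 pairs, correlations -0.051 to 0.029, 0 over 0.1), so the numbers were not taken to pair samples. Depth limited transcript shares of scarce genes such as Pcx in myoblasts.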
